A study of Mus musculus with 6 samples.

Results

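The genes described here are those of the red blood cell in the embryonic mouse cortex: the embryonic globins Hbb-bh1, Hbb-y and Hba-x, the adult globins Hba-a1 and Hbb-b1, the haem synthesis enzyme Alas2, the transcription factors Gata1 and Klf1, and the erythropoietin receptor Epor. They were taken by gene symbol from the annotation of the array's probes, and 8 of the 9 genes had a probe there. These genes had 9 of the 21766 probes on the array, with 2 for Hba-x and 1 for each of the others, and all 9 were among the 17476 probes tested. No probe carried the name Hbb-b1 in the annotation used here, so Hbb-b1 was not analysed here and the adult globins were represented by Hba-a1 alone. The genes were selected on the ratios of these same arrays, after an earlier analysis had placed a list of red blood cell genes below 0 in the mutants. The ratios of mutant over wild type are therefore given as a description, with intervals and no p-value for any of these genes. The number of their probes called in the fit over all probes is printed as part of that description only.

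Each of 6 dual-colour arrays compared RNA of a single cortex of an E12.5 mutant embryo with RNA of a single cortex of an E12.5 wild-type embryo. The mutants carried a paternal LacZ-targeted allele of Mest, also named Peg1, without exons 3 to 8, and their mothers were wild type, as were the embryos they were compared with. Mest is expressed from the paternal copy, so that these embryos keep an intact maternal copy that is normally silent. The labels give no strain or sex, and each animal is a separate embryo. The mutant was labelled with Cy5 for mutants 3, 5 and 6 and with Cy3 for mutants 1, 4 and 7. Mutants 3 and 1 were set against wild type 2, mutants 5 and 4 against wild type 8, and mutants 6 and 7 against wild type 9, where the partner of mutant 3 is labelled as wild type 1 and was read as wild type 2 from the design.

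Haemoglobin is a tetramer of alpha-type and beta-type globin chains, each of which holds a haem group. In the mouse embryo, primitive red cells that arise in the yolk sac enter the circulation first and carry the embryonic chains, zeta from Hba-x and epsilon-y and beta-h1 from Hbb-y and Hbb-bh1, together with alpha chains from Hba-a1. Definitive red cells made in the fetal liver follow, with alpha chains and the adult beta chains of genes such as Hbb-b1. Gata1 and Klf1 are transcription factors that switch on globin and haem genes in both lineages, Alas2 makes the first intermediate of haem in red cells, and Epor receives the hormone erythropoietin. The cortex makes no red cells of its own, and red cells in a dissected cortex come with its blood. Which cells gave the RNA of each of these genes was not measured. Any difference in the amount of blood and any difference in RNA per red cell cannot be told apart in such bulk samples.

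Hbb-bh1 and Hbb-y lie side by side in the beta-globin cluster on chromosome 7, and Hba-x and Hba-a1 side by side in the alpha-globin cluster on chromosome 11, with 0 protein-coding genes between either pair in assembly GRCm38.p6. The RefSeq promoter table of that assembly matched 7 of the 9 genes, with no entry used for Hbb-bh1 and Hbb-b1. The 150 bases before the annotated start of 4 of them are shown, since the embryonic globins, the adult alpha-globin and Alas2 are the genes whose ratios are set side by side below. Capitals mark matches on either strand to CACCC, the core of the element bound by Klf1 and related factors, to CCAAT, to GATA with A or T before it and A or G after it, and to ATANAA, a loose form of the TATA box. Overlapping matches run together in capitals.
Hbb-y: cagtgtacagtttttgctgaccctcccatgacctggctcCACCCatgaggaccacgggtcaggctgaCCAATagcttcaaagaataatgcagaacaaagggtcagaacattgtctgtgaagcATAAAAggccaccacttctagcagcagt
Hba-x: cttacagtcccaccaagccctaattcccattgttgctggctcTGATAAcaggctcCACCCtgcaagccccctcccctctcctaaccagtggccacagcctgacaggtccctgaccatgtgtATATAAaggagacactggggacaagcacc
Hba-a1: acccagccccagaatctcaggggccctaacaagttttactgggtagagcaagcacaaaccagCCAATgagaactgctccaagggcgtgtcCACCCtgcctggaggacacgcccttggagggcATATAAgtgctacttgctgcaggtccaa
Alas2: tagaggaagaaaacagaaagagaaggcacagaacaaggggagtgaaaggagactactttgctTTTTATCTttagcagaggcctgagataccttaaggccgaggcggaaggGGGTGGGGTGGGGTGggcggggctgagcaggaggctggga
The stretches lie at chr7:103853208-103853357 on the minus strand, chr11:32276450-32276599 on the plus strand, chr11:32283522-32283671 on the plus strand and chrX:150547267-150547416 on the plus strand, and are printed 5′ to 3′ along the gene.

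All 7 windows of these genes held CACCC, against 37.4% of the 32851 promoter windows of the same length. The ATANAA match lay 28 bases before the start of Hbb-y and of Hba-a1 and 29 bases before that of Hba-x, whereas that of Alas2 lay on the opposite strand, 88 bases before the start. ATANAA occurred in 4 of the 7 windows and in 21.1% of all windows. CCAAT occurred 83 bases before Hbb-y, 88 bases before Hba-a1 and 64 bases before Klf1, in 3 of 7 windows against 24.5% of all. This GATA motif was present in 4 of the 7, those of Hba-x, Alas2, Klf1 and Epor, against 16% of all. A match is a description of the letters in the window, and these arrays measured no binding.

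Arrays held values for 16422 to 19564 probes. No spot brightness was used here, so that no gene's level, those of the cortical markers included, could be given, and 6 arrays limit the precision. The direction of the ratios rests on the targeted gene, whose centred log2 ratios lay between -2.07 and -1.36 over the mutants. Values below are centred log2 ratios, mutant over wild type, which set the median probe of an array to 0, unless stated otherwise. Before that step the array medians, turned to mutant over wild type, were 0.26, 0.76 and 0.19 for mutants 3, 5 and 6 and 0.004, 0.585 and -0.28 for mutants 1, 4 and 7, and their mean of 0.25 is the amount by which centring lowers the mean ratio of a probe with values on all 6 arrays. Control spots for the glycolytic gene Gapdh averaged -0.26 ± 0.22 (SD, n = 6 arrays) after centring.

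The mutant over wild-type ratios of the embryonic beta-type globins lay 1.28-fold and 1.34-fold below the median ratio of the array. Relative to Gapdh or without centring, however, the difference was small against the spread over arrays. Hbb-bh1, the beta-h1 chain, had centred log2 ratios of -0.58, -0.13 and -0.13 in mutants 3, 5 and 6 and of -0.53, -0.31 and -0.45 in mutants 1, 4 and 7. All 6 values lay below 0, with the lowest pair on the arrays of wild type 2. The fit gave -0.36 (standard error 0.10, 95% confidence interval -0.61 to -0.10), or 1.28-fold lower (1.07-fold to 1.53-fold). Hbb-y, the epsilon-y chain, had -0.68, -0.61 and -0.17 in mutants 3, 5 and 6 and -0.49, 0.007 and -0.58 in mutants 1, 4 and 7. This ratio was above the median ratio of the array in mutant 4 only. The fitted ratio of Hbb-y was -0.42 (standard error 0.15, interval from -0.79 to -0.05), or 1.34-fold lower. Both beta-type chains were closer to 0 in mutant 6 than in mutants 3, 1 and 7.

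Hba-x, the zeta chain, was read by 2 probes that did not behave alike. The probe annotated with AF078905 had -0.37, -0.63 and -0.17 in mutants 3, 5 and 6 and -0.08, -0.12 and -0.39 in mutants 1, 4 and 7. Its 6 values lay below 0, and its fitted ratio was -0.29 (standard error 0.11, interval from -0.58 to -0.01). The probe annotated with NM_010405 had -0.25, -0.75 and -0.17 in mutants 3, 5 and 6 and -0.01, -0.08 and 0.27 in mutants 1, 4 and 7, with a fitted ratio of -0.16 (standard error 0.12, interval from -0.46 to 0.13). The 2 probes nearly coincided in mutant 6 and lay on opposite sides of 0 in mutant 7.

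Hba-a1, the adult alpha chain, had nearly the same deposited ratio on every array. Its deposited ratios, read as Cy5 over Cy3 before turning and centring, were 0.01, 0.016 and 0.016 for mutants 3, 5 and 6 and 0.01, 0.005 and 0.013 for mutants 1, 4 and 7. They spanned 0.011 in all, while the array medians spanned 1.35 and the median span over probes with 6 values was 1.58. Of the 13531 probes with values on all 6 arrays none had a narrower span than Hba-a1, and 2 probes, Hba-a1 among them, lay within 0.02 of 0 on every array. The NM_010405 probe of Hba-x did so on 5 arrays, at 0.011, 0.017 and 0.017 in mutants 3, 5 and 6 and at 0.01 and 0.014 in mutants 1 and 7, and lay at -0.51 in mutant 4. A total of 5 probes came this close to 0 on 5 or 6 arrays, and H3f3a, which encodes a histone expressed in all cells, was another of them. On the array of mutant 6, the AF078905 probe of Hba-x and the Hbb-y probe were also close, at 0.019 and 0.02. The Hba-a1 ratios kept the same small positive sign whichever dye held the mutant. Those of the NM_010405 probe and of H3f3a did so on every array but that of mutant 4, where H3f3a lay at -0.229. Spot brightness was not used here, so saturated or dim spots could not be told from others, and the cause was not tested.

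**Figure D1:**
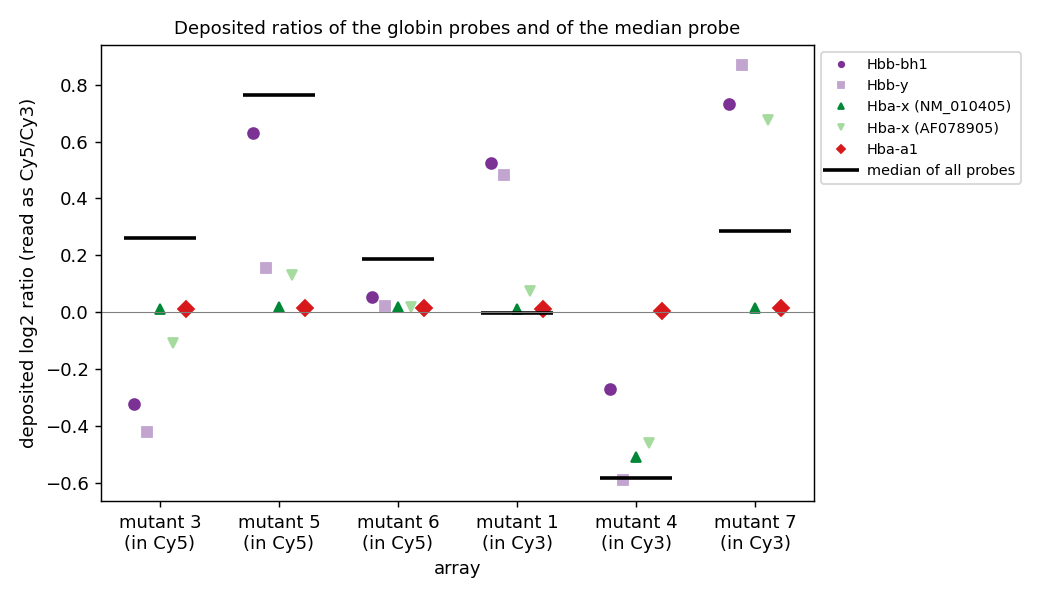
Deposited log2 ratio (vertical axis, read as Cy5 over Cy3, not centred) of the 5 globin probes on each of the 6 arrays (horizontal axis), with the median of all probes as a black bar. The red diamonds of Hba-a1 stay between 0.005 and 0.016 on every array while the median bars range from -0.585 to 0.76, and the NM_010405 probe of Hba-x leaves 0 on the array of mutant 4 only.

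The centred values of Hba-a1 were therefore the array medians with their sign turned. They were -0.25, -0.75 and -0.17 in mutants 3, 5 and 6 and -0.01, -0.59 and 0.27 in mutants 1, 4 and 7, with a fitted ratio of -0.25 (standard error 0.15, interval from -0.63 to 0.13). Without centring the mean was 0.0023 ± 0.013 (SD, n = 6 arrays). The same holds for the NM_010405 probe of Hba-x on 5 of its 6 arrays. In mutant 6 it nearly holds for the AF078905 probe and for Hbb-y, both at -0.17 as Hba-a1 was. Hba-a2, whose transcript is nearly identical to that of Hba-a1, had no probe of its own name, so that the Hba-a1 probe may read both genes.

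Set against Hba-a1 on the same array, the embryonic globins were not lower in a consistent manner. The mean of Hbb-bh1, Hbb-y and Hba-x, 1 value per gene, was -0.52, -0.48 and -0.16 in mutants 3, 5 and 6 and -0.35, -0.14 and -0.36 in mutants 1, 4 and 7, which gave -0.34 ± 0.16 (SD, n = 6 arrays). All 6 means lay below 0, as the choice of these genes favours. The embryonic mean minus Hba-a1, in which the centring of the array cancels, was -0.27, 0.27 and 0.014 in mutants 3, 5 and 6 and -0.34, 0.455 and -0.64 in mutants 1, 4 and 7. It averaged -0.085 ± 0.41 (SD, n = 6 arrays), with 3 arrays below 0 and 3 above, a mean well inside the spread. Both arrays of wild type 2 were below 0, both arrays of wild type 8 were above 0, and those of wild type 9 were split. As Hba-a1 stayed at 0, this difference restates the embryonic ratio without centring (-0.083 ± 0.41), and is no comparison with a measured adult chain.

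**Figure D2:**
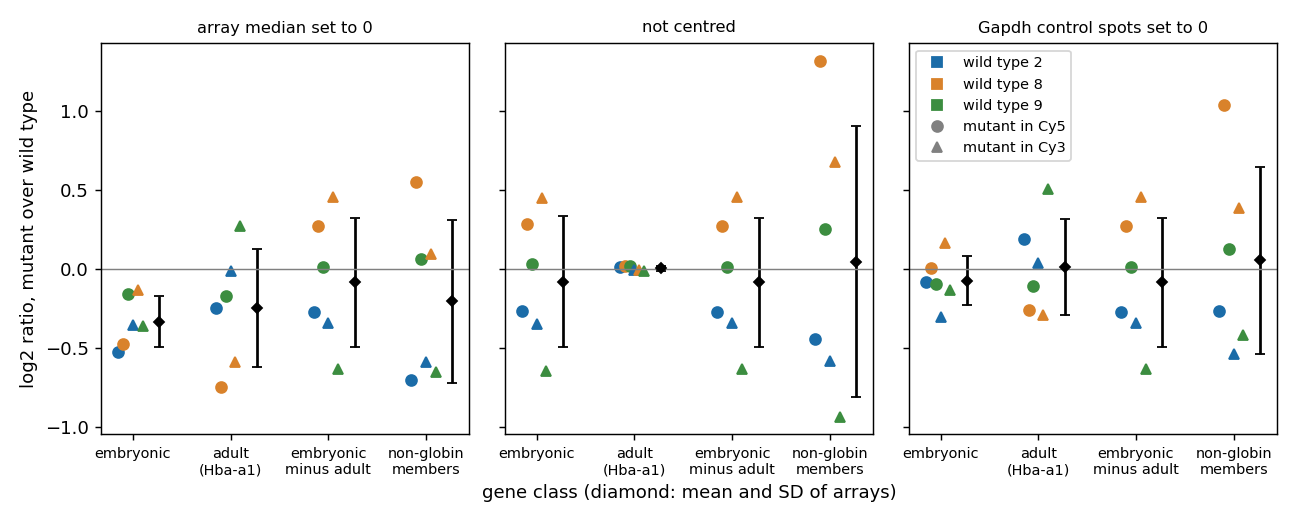
Log2 ratio of mutant over wild type (vertical axis) for the embryonic globin mean, the adult globin Hba-a1, their difference and the mean of the non-globin genes, under 3 choices of the zero of each array. Symbols are single arrays, coloured by wild type and shaped by dye, and diamonds with bars are the mean and SD of 6 arrays. The embryonic mean lies below 0 on 6 arrays only in the left panel, where the array median is 0, while the difference is the same in all 3 panels.

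The embryonic values depended on the zero chosen for the array. Relative to the Gapdh control spots the embryonic mean was -0.074 ± 0.15 (SD, n = 6 arrays), below 0 on 4 arrays and above on 2. On that scale Hbb-y had a fitted ratio of -0.16, Hbb-bh1 of -0.096 and the AF078905 probe of Hba-x of -0.033. Without any centring, each of Hbb-bh1, Hbb-y and the AF078905 probe of Hba-x had 3 arrays below 0 and 3 above, and no member probe was below 0 on every array, against 0.286% of all probes. The fitted values on that scale were -0.10, -0.17 and -0.041. The embryonic mean kept its sign on both of these scales, within 1 SD of 0. Leaving out the NM_010405 probe of Hba-x gave an embryonic mean of -0.36 ± 0.17 on the median-centred scale.

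Alas2, the enzyme that commits glycine and succinyl-CoA to haem in red cells, was below 0 on 5 of 6 arrays, but only relative to the array median. It had -0.21, 0.11 and -0.06 in mutants 3, 5 and 6 and -0.53, -0.22 and -0.56 in mutants 1, 4 and 7. The arrays with the mutant in Cy3 all lay below those with it in Cy5, although mutants 4 and 3 nearly met. The fitted ratio was -0.24 (standard error 0.093, interval from -0.48 to -0.01), and without centring it was 0.0078. Unlike Hbb-y, Alas2 was above 0 in mutant 5.

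Gata1, the factor at the head of the erythroid program, ranged too widely to give a direction. Its values were -3.11, 1.19 and 0.05 in mutants 3, 5 and 6 and -0.58, -0.07 and -0.81 in mutants 1, 4 and 7. Mutants 3 and 5 alone, both with the mutant in Cy5, set the ends of its range, and the fitted ratio of -0.55 had a standard error of 0.64. Without mutant 3 the fitted ratio was 0.061, and without both arrays of wild type 2 it was 0.093. Klf1, the factor that binds CACCC elements of globin genes, had values on 5 arrays, 0.57 and 0.52 in mutants 3 and 6 and -1.79, 0.14 and -0.80 in mutants 1, 4 and 7. Both Cy5 values lay above the 3 Cy3 values, and the fitted ratio was -0.08 with a standard error of 0.34. Epor was above 0 in mutants 5, 1 and 4 (0.34, 0.55 and 0.52) and below 0 in mutants 3, 6 and 7 (-0.07, -0.25 and -0.43), with a fitted ratio of 0.11 (standard error 0.18). The mean of the 4 non-globin genes was -0.21 ± 0.51 (SD, n = 6 arrays, without Klf1 in mutant 5), and 3 of the 6 arrays lay below 0. This mean was above 0 without centring (0.046), relative to Gapdh (0.055) and without the arrays of wild type 2 (0.014), and Klf1 was above 0 in 6 of 20 alternatives.

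**Figure D3:**
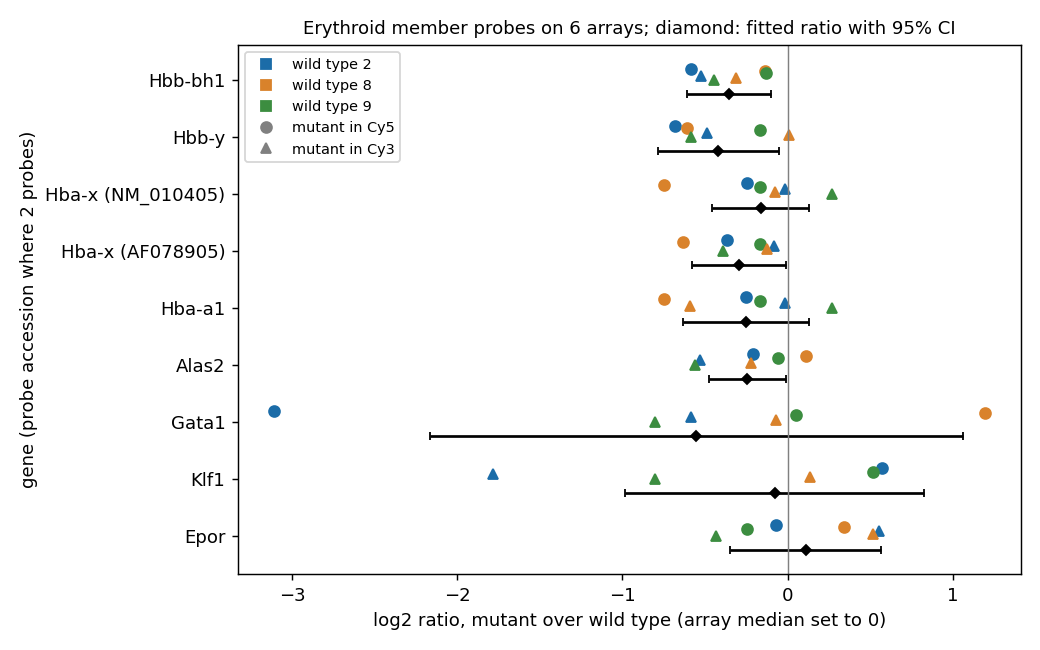
Centred log2 ratio of mutant over wild type (horizontal axis) of the 9 probes (vertical axis) on each array, with the fitted ratio and its 95% confidence interval as a black diamond and bar. The values of Hbb-bh1 and of the AF078905 probe of Hba-x lie below 0 on 6 of 6 arrays, and those of Gata1 span from -3.11 to 1.19. In mutant 6 the AF078905 value nearly restates the array median with its sign turned.

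Across the 9 probes, 8 had a fitted ratio below 0, where 48.7% of all tested probes did, and 2 were below 0 on every array, where 3.12% of all tested probes were. On the other side, 0 of the 9 were above 0 on every array, where 2.44% of all tested probes were. Since the genes were selected on this contrast, the counts are a description. The 8 probes below 0 include Hba-a1 and the NM_010405 probe of Hba-x, whose centred values mostly restate the array medians. Without centring these had fitted ratios of 0.0023 and 0.089, and Alas2, Klf1 and Epor had 0.0078, 0.27 and 0.36. The plain mean of the 5 uncentred Klf1 values was -0.12. On that scale Hbb-bh1, Hbb-y, the AF078905 probe of Hba-x and Gata1 stayed below 0 (-0.10, -0.17, -0.041 and -0.30). None of the 9 probes was called for genotype (limma, Benjamini-Hochberg over all probes), and 0% of the 17476 probes were. The probe of the targeted gene Mest, with a fitted ratio of -1.59, was not called either. An unadjusted limma p under 0.05 was reached by 687 of the 17476 probes, a smaller share than that threshold passes when no probe differs.

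The dye orientation was not used to choose the genes and could be tested. The dye coefficient, the mean with the mutant in Cy5 minus that with the mutant in Cy3, passed for 0 of the 9 probes, against 0.269% of all probes (limma, adjusted p from 0.23 to 0.95). At an unadjusted p under 0.05 for the dye term there was 1 of the 9, Alas2, where 20% of all probes passed. In Klf1 the coefficient was 1.48 (standard error 0.55, limma adjusted p = 0.25, n = 5 arrays) and in Alas2 0.39 (standard error 0.14, limma adjusted p = 0.23, n = 6 arrays). In the NM_010405 probe of Hba-x it was -0.45 (standard error 0.18, limma adjusted p = 0.26). The values of these 3 probes did not overlap between the dye orientations, as in 29.7% of all probes. For Hbb-bh1, Hbb-y, Gata1 and Epor the orientations overlapped.

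Ratios of other genes of the red cell lay on both sides of the median ratio of the array. Of the listed genes of haem synthesis and of its carriers across mitochondrial membranes, 13 of 15 were measured, with 6 below 0, 7 above and a median fitted ratio of 0.016, where the median of all 12576 genes was 0.001. Slc25a37, the mitoferrin that brings iron into mitochondria, had 0.63 and was above 0 on 6 of 6 arrays, although 1 value of 2.43 in mutant 5 set much of it and the other 5 lay between 0.059 and 0.64. Abcb10, a mitochondrial transporter of developing red cells, had 0.32 and ranged from 0.11 to 0.69. Ppox, the enzyme of the penultimate step of haem synthesis, had 0.18, and Urod, which acts earlier in the pathway, had -0.13, each on the same side of 0 on all arrays, although Urod had 0.12 without centring. Of these 13 genes 1 was below 0 and 3 above 0 on every array, against 416 and 299 of all 12576 genes. The same background applies to the genes named for this trait in the lists below. None of the 13 genes was called by limma, and 0 of all 17476 probes were.

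Proteins of the red cell membrane and cytosol were represented by 20 of 29 listed genes, with 8 below 0, 12 above and a median of 0.054. The lowest fitted ratio of the list was -0.38 for Ank1, the ankyrin that ties the membrane to its skeleton, with arrays from -1.61 to 1.48. The highest was 0.45 for Kel, the Kell blood group protein, with arrays from -0.75 to 2.72. Both ranges crossed 0, and both genes are named as the ends of the list. By the naming rule only Rhd qualified, a subunit of the Rh antigen complex, with 0.097 and all 6 arrays above 0. Without centring Rhd was below 0 on 1 array. Transcription factors that act with Gata1 and Klf1 had 14 of 15 genes measured, 6 below and 8 above 0, with a median of 0.010. Klf3, a repressor that binds the same CACCC elements as Klf1, had 0.29 and was above 0 on 6 of 6 arrays. None of these genes was called (limma, adjusted p threshold 0.05), and 0 of all 17476 probes were.

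In the list of erythropoietin and Kit signalling, 8 of 11 genes were measured, with 1 below 0, 7 above and a median of 0.13. In iron uptake and storage, 11 of 11 were measured, with 5 below, 6 above and a median of 0.027. Fth1, the heavy chain of the iron store ferritin, had -0.39 and was below 0 on 6 of 6 arrays, while without centring it had -0.14 and was below 0 on 4. Ireb2, which regulates ferritin and transferrin receptor messages, and Slc11a2, an iron importer, had 0.18 and 0.089, above 0 on all 6. Their standard errors were 0.076 and 0.081, and without centring each was below 0 on 1 array. With arrays not centred or centred on Gapdh, the medians of these 5 lists shifted as the median of all genes did, to between 0.27 and 0.39, where all genes lay at 0.25 and 0.26. The adult globin paralogs had 0 of 8 listed genes measured. A pair of globin pseudogenes, Hba-ps3 and Hbb-bh3, had values on 3 arrays each and were not tested.

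**Figure D4:**
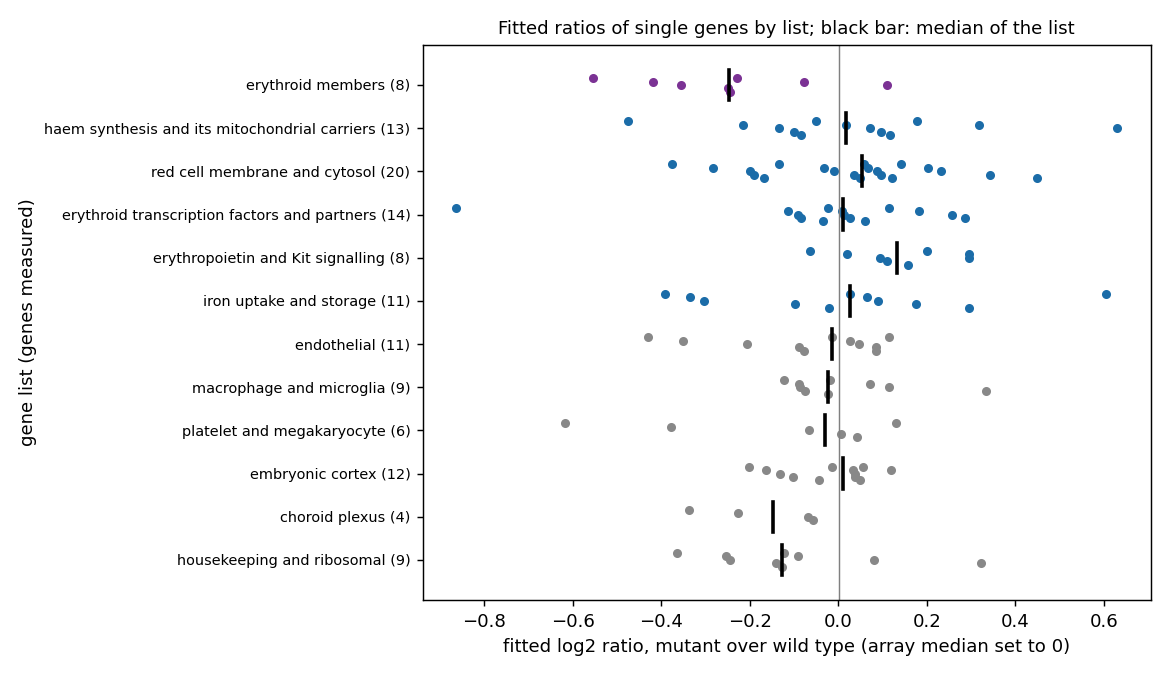
Fitted log2 ratio of mutant over wild type (horizontal axis, array median set to 0) of every measured gene by list (vertical axis, with the number of genes measured). Each point is 1 gene and each black bar the median of its list. The members have a median of -0.25, and the 5 lists of other red cell, haem and iron genes have medians between 0.010 and 0.13. The members were selected on this contrast, and the value of Hba-a1 among them restates the array medians. The lists were also chosen with earlier results of these data known.

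Marker lists of other tissues were set beside the globins. Choroid plexus genes had 4 of 5 measured, all 4 below 0, with a median of -0.15 and list means of -0.60, 0.08 and -0.15 in mutants 3, 5 and 6 and of -0.65, 0.26 and 0.02 in mutants 1, 4 and 7. Endothelial genes, which mark the vessels that hold the blood, had 11 of 11 measured, 6 below and 5 above 0, a median of -0.014 and list means from -0.35 to 0.23 over arrays. In 5 of the 11 lists measured, endothelial, macrophage, haem synthesis, erythroid transcription factors and iron, all 3 list means with the mutant in Cy5 lay above the 3 with it in Cy3. So did the means over all genes, from -0.0205 to 0.050 against -0.062 to -0.036. Macrophage and microglia genes (9 of 12 measured) had a median of -0.023, platelet genes (6 of 9) -0.031 and embryonic cortex genes (12 of 13) 0.0096. Reference genes of housekeeping and ribosomal function (9 of 9) had a median of -0.13 with 7 below 0, among them Ppia at -0.25 and Rps3 at -0.24, both below 0 on 6 of 6 arrays. Without centring the choroid plexus median was 0.10 and that of the reference genes 0.13, while Ppia and Rps3 had -0.00050 and 0.0082. The part of any of these in the globin ratios was not tested.

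Probes outside the members were also ranked by how closely their 6 centred values followed the embryonic globin mean. Among 13025 probes with 6 values, a standard deviation over arrays of at least 0.1 and no regard to their mean, Pearson's r with the embryonic mean was highest, among probes annotated with a single gene, for Tmem39a (0.997), Zfp689 (0.991), Rph3a and Nectin3 (0.967 each), then Ska1 (0.941), F8 (0.930), Fam20a (0.929) and Gm7426 (0.927). These are ranks over 6 arrays that share wild types and dye orientations, given without a test. A probe without a single gene symbol, at rank 6 (0.957), lay between Nectin3 and Ska1 and is not named. Among the members, which contribute to that mean in the case of the globins, Hbb-y had r = 0.96 at rank 5, the AF078905 probe of Hba-x 0.70 at rank 391 and Hbb-bh1 0.42 at rank 2133. Alas2 (-0.02) and Epor (0.08) lay in the middle of all probes, at ranks 6542 and 5517.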

How the data were processed

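The values were the deposited log2 ratios, 1 per probe and array. How the authors scanned, filtered and normalized the arrays is not given in the sources used here. Per the labels, Trizol was used to extract the RNA. Cy5 over Cy3 was taken as their direction, a reading that rests on the values, the dye labels and the Mest probe. A total of 590 values at the ceiling of 16.61 were treated as missing, and 232 Gapdh control spots were left out of the tests. A ratio of a spot saturated in both colours does not follow the RNAs, and such spots could not be identified without brightness.

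Ratios were signed as mutant over wild type and centred on the array's median. A probe entered the fit with 4 or more values, of which 2 or more came from each dye orientation. The model was limma 3.58.1 (R 4.3.3) with terms for genotype and dye and the shared wild type as a random block (consensus correlation 0.246). P-values were adjusted by Benjamini-Hochberg over 17476 probes with a threshold of 0.05. The p-values rest on 6 embryos of 1 genotype against 3 wild types that are each used on 2 arrays. Symbols came from the platform annotation, where 15952 of 16632 probes with 1 symbol matched a GRCm38.p6 gene and 0 changed. A gene's value is the mean of its probes.

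The members and lists were chosen with earlier results of these data known. The naming rule covered all member probes, Mest, at most 4 genes per list with values on at least 5 arrays, all on one side of 0, and the 8 probes most like the embryonic mean. Alternatives covered centring, scaling, the block, the dye term, missing values, moderation and arrays left out.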

Additional observations from a re-analysis of the deposited data

How the results depend on the processing

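The count of member probes called for genotype was 0 under all 21 alternatives run. In the main fit 0 of the 17476 probes were called, and the targeted gene Mest, at -1.59, was not called either. This count therefore does not set the members apart from other probes. The embryonic globin mean (-0.34) stayed below 0 under all 22 of its alternatives and moved by more than 1 SD in 2, to -0.083 with no centring and to -0.074 with arrays centred on Gapdh control spots, where Hbb-bh1 had -0.10 and -0.096 and the AF078905 probe of Hba-x had -0.041 and -0.033. Leaving out 1 mutant at a time gave -0.38 to -0.30 for the embryonic mean, -0.35 to -0.15 for Hba-a1, -0.36 to -0.11 for the non-globin mean, -0.19 to 0.025 for embryonic minus adult and 0 to 0 called probes. As Hba-a1 stayed near 0 before centring, its range restates the array medians, and embryonic minus adult restates the embryonic ratio without centring. Embryonic minus adult changed sign without mutant 7 (0.025), without the arrays of wild type 2 (0.026) or wild type 9 (0.028) and with the mutant in Cy5 only (0.0032). Gata1 changed sign without mutant 3 (0.061) and without the arrays of wild type 2 (0.093). Klf1 was above 0 in 6 of its 20 alternatives, without mutant 1 (0.14), mutant 6 (0.11) or wild type 2 (0.15), with no centring (0.27), with Gapdh centring (0.12) and with the mutant in Cy5 only (0.54). The mean of the non-globin genes was above 0 with no centring (0.046), with Gapdh centring (0.055) and without wild type 2 (0.014). With no centring and with Gapdh centring, Alas2 (0.0078 and 0.016), Hba-a1 (0.0023 and 0.011) and the NM_010405 probe of Hba-x (0.089 and 0.097) were also above 0, the last also with the mutant in Cy3 only (0.060). Epor was below 0 without wild type 8 (-0.050). The alternative that adds adult globin paralogs could not be run, since 0 of 8 had a probe under their names. Leaving out the near-zero probe of Hba-x was chosen after the data were seen. Each ratio already pairs a mutant with a wild type on 1 array. Without the block for a wild type shared by 2 arrays, the count of called probes was 0 and no member probe changed sign. The number of arrays and the lack of spot brightness limit the precision.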

Other observations

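The arrays also hold probes for a pair of globin pseudogenes. Hba-ps3 had deposited ratios (Cy5 over Cy3, not centred) of 0.598, -2.94 and 0.515 in mutants 6, 1 and 7, and Hbb-bh3 had -1, 0 and 1.35 in mutants 5, 4 and 7. With 3 values each, neither gives a direction.

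Between arrays that share a wild type, gaps were smaller for some genes than for others. The 2 arrays of each wild type, as read here, had the mutant in different dyes, so the gaps hold dye as well as embryo differences. Hbb-bh1 differed by 0.056, 0.18 and 0.31 between the 2 mutants set against wild types 2, 8 and 9, and Hbb-y by 0.20, 0.61 and 0.42. Fabp3, a fatty acid binding protein gene, was the only probe with deposited ratios within 0.02 of 0 on exactly 4 of 6 arrays. It had 0.666 in mutant 5 and -0.702 in mutant 4.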
